A study of Mus musculus with 9 samples.

Results

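The proteasome is the barrel-shaped protease that degrades ubiquitin-tagged proteins in the cytosol and nucleus. Its 20S core stacks alpha rings outside beta rings, and 3 kinds of beta subunit carry the cutting sites. The 19S regulatory particle caps the core: a base of ATPases unfolds the substrate, and a lid removes its ubiquitin. In the liver, as elsewhere, misfolded proteins that are exported from the endoplasmic reticulum (ER) are degraded by it, and interferon can exchange the cutting subunits for inducible ones. The genes were chosen by name, as protein-coding genes named Psma, Psmb, Psmc, Psmd, Psme, Psmf or Psmg followed by a digit. There were 50 of them among 54532 genes in the table. They were divided into 8 alpha subunits, 7 constitutive and 4 inducible or tissue-specific beta subunits, 6 base ATPases, 3 other base subunits, 8 lid subunits, 7 assembly chaperones, and 6 activators or inhibitors. The remaining gene, Psmc3ip, matched by name only and encodes a recombination factor, not a proteasome subunit.

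RNA was sequenced from primary hepatocytes of C57BL/6 mice in 9 libraries, 3 in each of 3 groups. CKO Tu cells came from COX-2fl/fl/Alb-Cre+ mice and received tunicamycin, an inhibitor of protein N-glycosylation that causes ER stress. WT Tu cells came from COX-2fl/fl/Alb-Cre- littermates and received the same drug, and WT DMSO cells came from such littermates and received the solvent. Both genotypes therefore carried the floxed COX-2 allele, and Cre was driven by the albumin promoter, which is active in hepatocytes. All cells were kept for 2 hours in 1% serum and then treated for 24 hours, with tunicamycin at 6 μmol/L. COX-2 CKO cells with DMSO were not analysed here, so the genotype was compared under tunicamycin only. The age of the mice and whether replicates came from separate animals were not given, so the p-values reflect only how far libraries of a group differ, which may be technical.

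Each library held between 14897358 and 16001484 assigned fragments. Ptgs2, the gene of COX-2, had 1, 1 and 2 fragments in CKO Tu, 8, 5 and 5 in WT Tu, and 0, 13 and 8 in WT DMSO, too few for a check of the genotype in each library. The labels describe male mice. The 3 CKO Tu libraries held 3486 to 3633 fragments of 4 Y-linked genes and 0, 3 and 0 of Xist, while the 6 WT libraries held 0 fragments of those Y-linked genes and 20659 to 33657 of Xist. Genotype and this sex-linked difference cannot be told apart in any comparison with CKO Tu. WT Tu replicate 1 was unlike its group, at -36.65 on the second principal component, where the others lay at -19.58 and -19.64. For several results that rest on it, the value without it or the range over the libraries left out is given. The 8 hepatocyte markers were high in every library, with summed levels of 14190 to 15150 FPKM in CKO Tu, 16010 to 17360 FPKM in WT Tu and 16080 to 17890 FPKM in WT DMSO. Most of that sum was Alb, at 10065 to 10603 FPKM in CKO Tu, 13505 to 14992 FPKM in WT Tu and 13548 to 15037 FPKM in WT DMSO. Apoa1, Fgb, Hnf4a, Serpina1c, Tat and Ttr were instead highest in CKO Tu, Hnf4a for example at 18.3 to 20.7 FPKM in CKO Tu, 5.56 to 7.05 FPKM in WT Tu and 10.3 to 12.2 FPKM in WT DMSO. The part of this in any result was not tested. FPKM, the deposited unit, is fragments per unit of gene length and of scaled library size. In these bulk samples, fewer cells of a type and less RNA per cell cannot be told apart.

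Proteasome transcripts were lower in CKO Tu than in WT Tu, and lower in WT Tu than in WT DMSO, across most subcomplexes. Summed over the 50 genes, the level was 2242, 2205 and 2250 FPKM in CKO Tu, 2603, 2569 and 2546 FPKM in WT Tu, and 2856, 2793 and 2845 FPKM in WT DMSO. The 3 groups did not overlap. As a share of all assigned fragments, which does not depend on the deposited scaling, the genes took 0.5999% to 0.611% in CKO Tu, 0.657% to 0.666% in WT Tu and 0.770% to 0.797% in WT DMSO. The order was the same.

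The limma test was run on the 11858 genes that reached 1 FPKM in 3 or more libraries, and 46 of the 50 genes passed this filter. Psma8, Psmb9, Psmb11 and Psmc3ip did not. For CKO Tu against WT Tu, 27 of the 46 were lower and 3 higher at an adjusted p below 0.05, when 19.6% of all genes tested were lower and 18.7% higher. The median log2 change was -0.22 for the 46 and 0.00 for all genes tested. For WT Tu against WT DMSO, 16 were lower and 3 higher, against 15.9% and 17.7% of all genes, with a median of -0.14. For CKO Tu against WT DMSO, which differ in both genotype and drug, 28 were lower and 3 higher, against 24.2% and 25.3% of all genes, with a median of -0.32. These comparisons share libraries and are not independent of each other.

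Counted by groups that did not overlap, 29 of the 46 were lower in CKO Tu than in WT Tu (26.2% of all genes) and 5 higher (25%), 24 were lower in WT Tu than in WT DMSO (22.8%) and 4 higher (23.9%), and 33 were lower in CKO Tu than in WT DMSO (31.3%) and 5 higher (31.8%).

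The calls were not equally firm. Calls in either direction numbered 30 in CKO Tu against WT Tu (38.3% of all genes were called), 19 in WT Tu against WT DMSO (33.6%) and 31 in CKO Tu against WT DMSO (49.5%). With each of the 9 libraries left out in turn, 21 of the 30 calls in CKO Tu against WT Tu, 11 of the 19 in WT Tu against WT DMSO and 27 of the 31 in CKO Tu against WT DMSO stayed past the threshold throughout. Without WT DMSO replicate 3, the count lower in WT Tu than in WT DMSO was 9 (11.3% of all genes). Without WT Tu replicate 1 it was 17 (14.9%), with 3 higher (17.6%). The counts for CKO Tu against WT Tu were then 27 lower (21.2%) and 3 higher (20%), and those for CKO Tu against WT DMSO 32 lower (28.1%) and 5 higher (28.6%). Without CKO Tu replicate 1, and likewise without CKO Tu replicate 2, 1 gene was called higher in CKO Tu than in WT Tu (13.7% and 13.9% of all genes). The scaling also mattered in WT Tu against WT DMSO. With each library scaled to its total fragments the median of all genes moved by -0.11. Of the 46, 28 were then lower (26.2% of all genes) and 1 higher (12.1%). Of all genes called in that comparison, 52.7% were higher with the deposited scaling, 31.5% with total-fragment scaling and 42.3% with upper-quartile scaling. With total-fragment scaling, 20 of the 46 were lower (15.9% of all genes) and 5 higher (21.9%) in CKO Tu against WT Tu, at a median of -0.16.

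**Figure D1:**
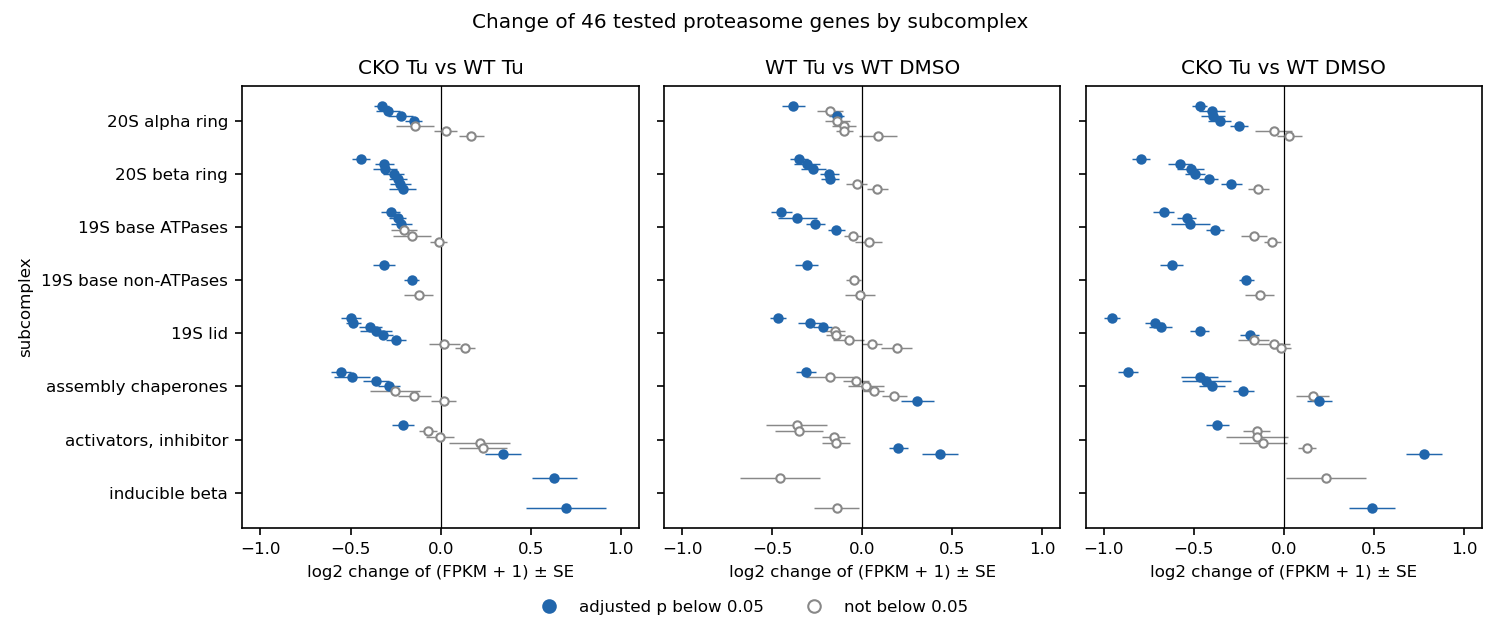
Log2 change of FPKM + 1, with its standard error, for the 46 tested proteasome genes in 8 subcomplexes (rows), in 3 comparisons (panels). Filled points have a limma adjusted p below 0.05. In CKO Tu against WT Tu all 7 beta ring genes lie below 0 and both inducible beta genes lie above 0.

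The alpha ring forms the gate of the core. Of its 7 tested genes, 4 fell in CKO Tu against WT Tu (57.1%, against 19.6% of all genes) and none rose. In WT Tu against WT DMSO 2 fell (28.6%, against 15.9%) and none rose. Psma6 had 85.3, 85.3 and 87.5 FPKM in CKO Tu, 109.6, 106.1 and 108.7 FPKM in WT Tu, and 120.5, 119.8 and 117.8 FPKM in WT DMSO. No group overlapped another. Its log2 change in CKO Tu against WT Tu was -0.33 ± 0.04 (SE; limma adjusted p = 0.000469). Psma1 fell by 0.29 ± 0.07 in the same comparison (adjusted p = 0.00829). Psma7 had another profile, with 47.8, 42.6 and 43.4 FPKM in CKO Tu, 44.4, 45.0 and 41.6 FPKM in WT Tu, and 59.4, 54.2 and 58.4 FPKM in WT DMSO. Its log2 change in WT Tu against WT DMSO was -0.38 ± 0.06 (adjusted p = 0.00198), and CKO Tu overlapped WT Tu. That call was lost when the trend of changes with GC content was removed. Psma1, Psma2 and Psma4 were then called lower in that comparison (adjusted p = 0.0108, 0.00538 and 0.02). Psma5 had 100.3, 93.5 and 104.3 FPKM in CKO Tu, 87.8, 89.1 and 87.6 FPKM in WT Tu, and 106.2, 89.3 and 96.7 FPKM in WT DMSO. It did not pass in any comparison (adjusted p = 0.087 for CKO Tu against WT Tu).

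Of the other alpha ring calls, those of Psma2 and Psma4 in CKO Tu against WT Tu (log2 -0.15 and -0.22) and of Psma6 in WT Tu against WT DMSO (-0.14) were lost when some libraries were left out. For Psma2 these were WT DMSO replicates 2 and 3, WT Tu replicate 2 and each CKO Tu library (adjusted p up to 0.123). For Psma4 they were WT Tu replicates 2 and 3 and CKO Tu replicates 1 and 2 (up to 0.129). For Psma6 they were each WT DMSO library, WT Tu replicates 2 and 3 and CKO Tu replicates 1 and 2 (up to 0.0854). Psma8, the testis form of an alpha subunit, was between 0.320 and 0.853 FPKM in all libraries. Psma2 overlaps AW209491 on its own strand, so its counts are uncertain.

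The beta ring holds the proteolytic sites of the core. All 7 constitutive beta genes fell in CKO Tu against WT Tu (100%, against 19.6% of all genes), by 0.21 to 0.44 on the log2 scale. In WT Tu against WT DMSO 5 of them fell (71.4%, against 15.9%). The summed level of the 7 was 70.3% to 72.2% of the WT DMSO mean in CKO Tu and 86.4% to 89.0% in WT Tu. The largest change was that of Psmb3, a subunit without a cutting site, with 34.3, 32.8 and 35.2 FPKM in CKO Tu, 44.4, 48.2 and 47.7 FPKM in WT Tu, and 60.0, 59.3 and 60.3 FPKM in WT DMSO. The groups were fully apart, with log2 changes of -0.44 ± 0.05 for CKO Tu against WT Tu (limma adjusted p = 0.000273) and -0.35 ± 0.05 for WT Tu against WT DMSO (adjusted p = 0.00101). Psmb1, Psmb2 and Psmb4, which also lack cutting sites, fell in CKO Tu against WT Tu by 0.26 ± 0.06 (limma adjusted p = 0.00737), 0.22 ± 0.06 (adjusted p = 0.0158) and 0.24 ± 0.05 (adjusted p = 0.00637).

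The 3 cutting subunits were all lower in CKO Tu. Psmb5, which carries the chymotrypsin-like site, had 149.0, 143.6 and 157.0 FPKM in CKO Tu, 196.0, 190.4 and 171.0 FPKM in WT Tu, and 232.3, 212.0 and 228.2 FPKM in WT DMSO. Its log2 change in CKO Tu against WT Tu was -0.31 ± 0.07 (limma adjusted p = 0.00723). Psmb6, which carries the caspase-like site, had 60.8, 64.0 and 64.2 FPKM in CKO Tu, 74.2, 82.9 and 78.5 FPKM in WT Tu, and 88.0, 88.1 and 91.5 FPKM in WT DMSO, and its log2 change in CKO Tu against WT Tu was -0.31 ± 0.05 (adjusted p = 0.00229). For both genes all 3 groups were separate. Psmb7, which carries the trypsin-like site, had 27.4, 27.3 and 24.5 FPKM in CKO Tu, 27.8, 32.0 and 32.5 FPKM in WT Tu, and 37.0, 38.9 and 38.7 FPKM in WT DMSO. WT Tu replicate 1 lay close to the CKO Tu libraries, and the log2 change in CKO Tu against WT Tu was -0.21 ± 0.07 (adjusted p = 0.0476). The log2 change of Psmb7 in WT Tu against WT DMSO was -0.31 ± 0.07 (adjusted p = 0.0116). Psmb7 overlaps Nek6 on the other strand.

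Several beta ring calls were close to the threshold. That of Psmb7 in CKO Tu against WT Tu was lost without any of the libraries other than WT Tu replicate 1 (adjusted p up to 0.157), at log2 changes of -0.281 to -0.161 over the 9 libraries left out. That of Psmb2 in the same comparison was lost without WT Tu replicate 2 or CKO Tu replicate 2 or 3 (up to 0.0622), at changes of -0.268 to -0.198. In WT Tu against WT DMSO, the call of Psmb5 was lost without WT DMSO replicate 3 (0.0528) and when the GC trend was removed (0.309). The call of Psmb4 was lost without WT DMSO replicate 2 or 3 or WT Tu replicate 2 (up to 0.0825), and that of Psmb6 without any WT DMSO library, WT Tu replicate 3 or CKO Tu replicate 2 (up to 0.104).

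The start of transcription of Psmb5 and Psmb6 is printed here because both lie close to a match to TGACNNNGC, the core of the element bound by the NRF1 and NRF2 factors, which in mammals can raise proteasome genes together. Psme4 is shown as a gene with such a match that changed the other way, and Psmb8 for the inducible subunits. Each run is the RefSeq GRCm38.p6 sequence of 130 bases, from 110 bases before the start to 20 bases past it, 5′ to 3′ on the gene's strand. Capitals mark TGACNNNGC on either strand in the first 3 runs and TTCNNNGAA, the core of the interferon gamma activated site, in the last. The runs are chr14:54617976-54618105 on the minus strand for Psmb5, and on the plus strand chr11:70525247-70525376 for Psmb6, chr11:30771665-30771794 for Psme4 and chr17:34198085-34198214 for Psmb8.
Psmb5: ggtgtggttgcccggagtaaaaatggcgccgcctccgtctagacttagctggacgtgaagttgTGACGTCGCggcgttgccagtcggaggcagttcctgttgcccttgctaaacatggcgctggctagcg
Psmb6: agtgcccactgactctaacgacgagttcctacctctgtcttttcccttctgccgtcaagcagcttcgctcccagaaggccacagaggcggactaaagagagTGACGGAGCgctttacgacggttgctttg
Psme4: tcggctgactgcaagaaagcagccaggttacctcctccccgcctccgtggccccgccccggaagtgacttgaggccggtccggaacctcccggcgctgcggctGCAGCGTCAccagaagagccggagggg
Psmb8: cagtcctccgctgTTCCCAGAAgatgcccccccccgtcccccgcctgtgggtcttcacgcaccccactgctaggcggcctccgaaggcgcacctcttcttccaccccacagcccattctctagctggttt

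Promoters of 300 bases, 250 before to 50 past the start, were matched for 42 of the 50 genes and searched on both strands. TGACNNNGC was present for 6 of the 42 (14.3%), namely Psmb5, Psmb6, Psmc6, Psmd12, Psmd9 and Psme4, against 14.0% of all genes with a promoter. The match begins 47 bases before the start in Psmb5, 9 before it in Psmb6 and 7 before it in Psme4. In Psmd9, whose start is not printed, it lies nearer the start than in Psmb5. CCAAT, the letters bound by the NF-Y factor, was present for 15 of the 42 (35.7%) against 41.1% of all genes. TGACGTGG, a core of the unfolded protein response element, was present for 0 of the 42 against 0.714% of all genes. TTCNNNGAA, searched after the values had been seen, was present for 3, Psmb8, Psmd2 and Psmg1 (7.14%), against 9.55% of all genes. TGACGTGG and TGACNNNGC can share their first letters, and a match is a description of letters only.

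Both tested inducible beta subunits, Psmb8 and Psmb10, rose in CKO Tu against WT Tu, while Psmb9 and Psmb11 were below the filter. Interferon gamma induces Psmb8, Psmb9 and Psmb10, which replace Psmb5, Psmb6 and Psmb7 in newly built cores (the immunoproteasome) and alter the peptides made for MHC class I. Psmb8 had 4.97, 4.69 and 4.51 FPKM in CKO Tu, 2.05, 3.13 and 2.995 FPKM in WT Tu, and 2.61, 3.39 and 3.26 FPKM in WT DMSO. All 3 CKO Tu libraries were above every WT library, while WT Tu and WT DMSO overlapped. The log2 change in CKO Tu against WT Tu was 0.63 ± 0.13 (limma adjusted p = 0.00451), on 600 fragments in CKO Tu and 336 in WT Tu. Without WT Tu replicate 1 it was 0.49 (adjusted p = 0.00471). Against WT DMSO the CKO Tu change was 0.49 ± 0.13 (adjusted p = 0.0106).

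Psmb10 had 17.7, 15.6 and 13.1 FPKM in CKO Tu, 5.69, 11.4 and 11.4 FPKM in WT Tu, and 12.7, 13.5 and 12.5 FPKM in WT DMSO. WT Tu replicate 1 was far below the other WT Tu libraries. The log2 change in CKO Tu against WT Tu was 0.69 ± 0.22 (limma adjusted p = 0.0362). Leaving out WT Tu replicate 1 gave 0.40 (adjusted p = 0.0193). The call was lost without any WT DMSO library or without CKO Tu replicate 1 or 2 (adjusted p up to 0.117). CKO Tu overlapped WT DMSO, at a log2 change of 0.23 ± 0.22 (adjusted p = 0.413). Psmb9, below the filter, had 0.681, 0.547 and 0.430 FPKM in CKO Tu, 0.480, 0.451 and 0.463 FPKM in WT Tu, and 0.771, 0.829 and 0.762 FPKM in WT DMSO. CKO Tu overlapped WT Tu for Psmb9, and all 6 tunicamycin libraries were below WT DMSO. Psmb11, the thymus form, was between 0 and 0.165 FPKM.

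Set against the subunit it replaces, Psmb10 was 64.7%, 57.2% and 53.3% of Psmb7 in CKO Tu, 20.5%, 35.7% and 35.2% in WT Tu, and 34.3%, 34.7% and 32.3% in WT DMSO, in FPKM. Psmb8 was 3.34%, 3.27% and 2.87% of Psmb5 in CKO Tu, 1.05%, 1.65% and 1.75% in WT Tu, and 1.13%, 1.60% and 1.43% in WT DMSO. For both pairs every CKO Tu library was above every WT library. The percentages depend on the deposited gene lengths, 1705 bases for Psmb10 and 3421 for Psmb7, so they are not shares of transcripts. They also move with the constitutive subunit. In CKO Tu against WT DMSO Psmb10 did not pass, while Psmb7 fell by 0.518 on the log2 scale (limma adjusted p = 0.0004). Psmb9 was 1.12%, 0.8545% and 0.670% of Psmb6 in CKO Tu, 0.647%, 0.544% and 0.589% in WT Tu, and 0.877%, 0.941% and 0.833% in WT DMSO. For this pair CKO Tu was above WT Tu but overlapped WT DMSO. Leukocytes also express the inducible subunits. The summed level of 6 leukocyte markers was 0.667 to 0.780 FPKM in CKO Tu, 0.846 to 1.06 FPKM in WT Tu and 0.961 to 1.84 FPKM in WT DMSO, of which Cd74 made up most, and 0 of the 6 reached 1 FPKM in 3 libraries. Ms4a1 and Nkg7 were listed at 0 in all CKO Tu and WT Tu libraries. Kupffer cell and macrophage markers summed to 92.7 to 106.9 FPKM in CKO Tu, 96.9 to 114.8 FPKM in WT Tu and 75.3 to 93.0 FPKM in WT DMSO. Nearly all of that sum was Cd68, with Clec4f, Adgre1, Cd5l, Marco and Vsig4 listed at 0 in all CKO Tu libraries. Endothelial markers summed to 2.96 to 3.34 FPKM in CKO Tu, 3.85 to 5.25 FPKM in WT Tu and 10.2 to 11.2 FPKM in WT DMSO, and the part of any of these cell types in a result was not tested.

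**Figure D2:**
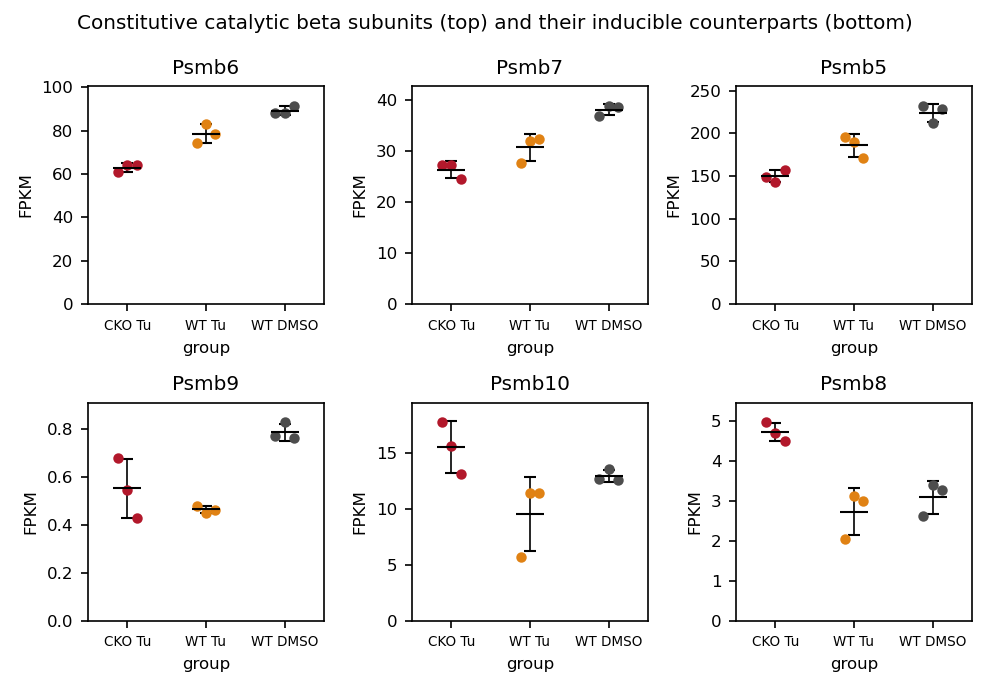
FPKM of the constitutive cutting subunits Psmb6, Psmb7 and Psmb5 (top) and of their inducible counterparts Psmb9, Psmb10 and Psmb8 (bottom) in 9 libraries; points are libraries, and bars are the mean and SD of 3. Psmb8 lies between 4.51 and 4.97 FPKM in CKO Tu and at or below 3.39 FPKM in all 6 WT libraries, while Psmb5 and Psmb6 are lowest in CKO Tu.

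Genes linked to interferon and antigen processing were called lower more often than higher. The only ones called higher were the regulators Irf1 and Nlrc5. Of 9 genes linked to interferon and antigen processing, 8 were tested. Of the 8, 1 rose (12.5%, against 18.7% of all genes) and 5 fell (62.5%, against 19.6%) in CKO Tu against WT Tu. In WT Tu against WT DMSO 1 rose (12.5%, against 17.7%) and 4 fell (50%, against 15.9%). Irf1, an interferon-response factor, had 3.468, 3.602 and 3.350 FPKM in CKO Tu, 1.096, 1.502 and 1.755 FPKM in WT Tu, and 3.992, 3.784 and 2.804 FPKM in WT DMSO. It was higher in CKO Tu than in WT Tu by 0.88 ± 0.13 on the log2 scale (limma adjusted p = 0.000959). Nlrc5, which activates MHC class I genes, moved the other way, at -0.54 ± 0.08 in CKO Tu against WT Tu (adjusted p = 0.000746) and 0.56 ± 0.08 in WT Tu against WT DMSO (adjusted p = 0.000667). B2m, the light chain of MHC class I, had 862.7, 855.2 and 857.1 FPKM in CKO Tu, 1396, 1072 and 1104 FPKM in WT Tu, and 1130, 1140 and 1150 FPKM in WT DMSO. Its log2 change in CKO Tu against WT Tu was -0.46 ± 0.09 (adjusted p = 0.00462), at -0.532 to -0.342 over the 9 libraries left out. Tap2, a chain of the peptide transporter, also fell in that comparison (-0.41 ± 0.11; adjusted p = 0.0164), a call lost without WT Tu replicate 2 or 3 or CKO Tu replicate 3 (up to 0.0559). The largest changes in WT Tu against WT DMSO were falls of Irf1 (-0.88 ± 0.13; adjusted p = 0.00102), Tapbp, which loads peptides (-0.78 ± 0.07; adjusted p = 7.8e-05), Irf9, a factor of interferon signalling (-0.66 ± 0.09; adjusted p = 0.000932), and Tap1, the other transporter chain (-0.59 ± 0.15; adjusted p = 0.0134). The call of Tap1 was lost without WT DMSO replicate 2 (0.0508).

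The base of the regulatory particle contains a ring of 6 ATPases. Of these, 3 fell in CKO Tu against WT Tu (50%, against 19.6% of all genes) and 4 in WT Tu against WT DMSO (66.7%, against 15.9%), with none higher in either. Psmc4 had 49.7, 49.0 and 45.7 FPKM in CKO Tu, 52.2, 58.2 and 58.2 FPKM in WT Tu, and 78.5, 75.7 and 76.7 FPKM in WT DMSO. All groups were apart, and the larger step was in WT Tu against WT DMSO, at -0.45 ± 0.06 (limma adjusted p = 0.000567), beside -0.22 ± 0.06 in CKO Tu against WT Tu (adjusted p = 0.0186). Psmc3 had 43.1, 45.4 and 46.03 FPKM in CKO Tu, 52.8, 55.0 and 55.8 FPKM in WT Tu, and 63.0, 65.3 and 68.5 FPKM in WT DMSO. Its changes were -0.28 ± 0.05 (adjusted p = 0.00347) and -0.26 ± 0.05 (adjusted p = 0.00524) in these comparisons. Psmc5 fell in CKO Tu against WT Tu by 0.24 ± 0.05 (adjusted p = 0.00497). Psmc2 was nearly level, at 40.5 ± 0.935 FPKM in CKO Tu, 40.8 ± 1.34 FPKM in WT Tu and 42.3 ± 1.08 FPKM in WT DMSO (SD, n = 3 each), and did not pass in any comparison. With the GC trend removed it was called lower in WT Tu against WT DMSO (-0.207; adjusted p = 0.0438). The same held in CKO Tu against WT DMSO (-0.192; adjusted p = 0.0394).

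Psmc1 depended on WT Tu replicate 1. It had 85.8, 88.7 and 90.2 FPKM in CKO Tu, 80.4, 110 and 108.4 FPKM in WT Tu, and 126.7, 127.1 and 126.7 FPKM in WT DMSO. With all libraries, CKO Tu overlapped WT Tu, at a log2 change of -0.16 (limma adjusted p = 0.272). Without WT Tu replicate 1 the change was -0.31 (adjusted p = 0.000494). Between WT Tu and WT DMSO it was -0.36 with all libraries (adjusted p = 0.0301) and -0.21 without that library (adjusted p = 0.00309), and the call was lost without any WT DMSO library (up to 0.0753). Among the other ATPases, the call of Psmc4 in CKO Tu against WT Tu was lost without WT Tu replicate 2 or 3 or CKO Tu replicate 3 (up to 0.0709). The call of Psmc5 in WT Tu against WT DMSO (-0.14; adjusted p = 0.0495) was lost without each of the 9 libraries (up to 0.131).

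The other base subunits are the scaffolds Psmd1 and Psmd2 and the ubiquitin receptor Psmd4. Psmd4 had 58.3, 56.3 and 50.2 FPKM in CKO Tu, 65.5, 68.6 and 71.0 FPKM in WT Tu, and 86.3, 84.5 and 83.9 FPKM in WT DMSO. No group overlapped another, with changes of -0.31 ± 0.06 in CKO Tu against WT Tu (limma adjusted p = 0.00476) and -0.31 ± 0.06 in WT Tu against WT DMSO (adjusted p = 0.00591). Psmd2 fell in CKO Tu against WT Tu by 0.16 ± 0.04 (adjusted p = 0.0146), a call that was lost without CKO Tu replicate 2 or 3 (up to 0.054). Psmd1 did not pass in any comparison, with 25.8 ± 0.779 FPKM in CKO Tu, 28.25 ± 3.25 FPKM in WT Tu and 28.4 ± 1.64 FPKM in WT DMSO (SD, n = 3 each).

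**Figure D3:**
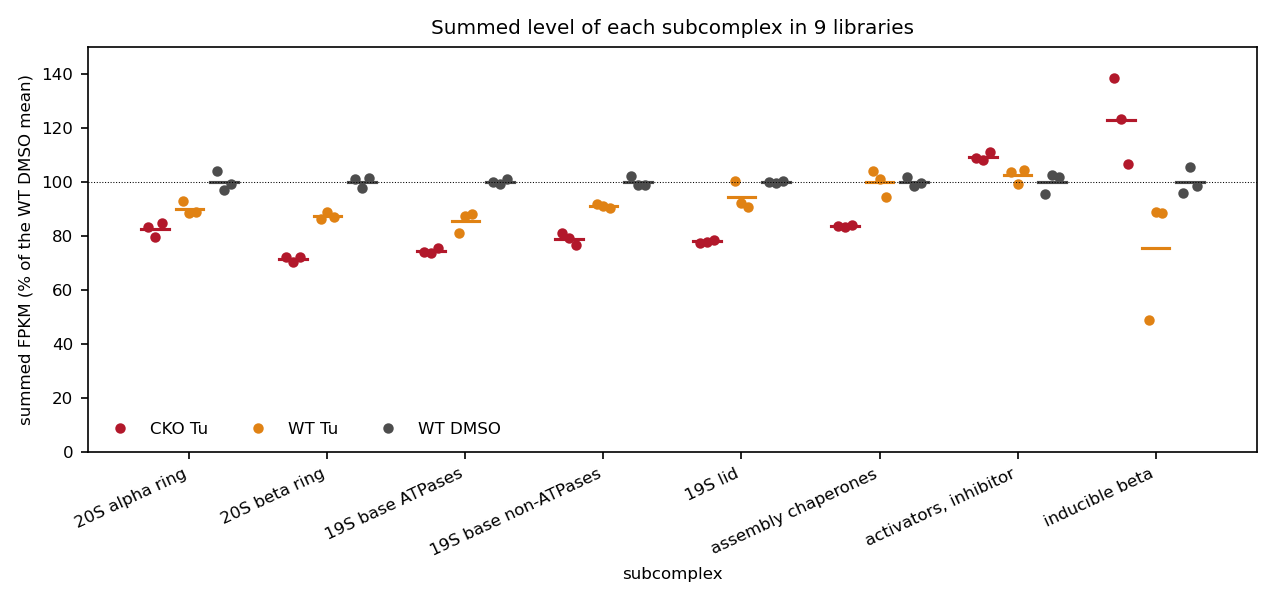
Summed FPKM of each subcomplex in every library (points; 3 per group) as a percentage of its WT DMSO mean (dotted line at 100), with the group mean as a bar. The beta ring sum lies between 70.3% and 72.2% in CKO Tu and between 86.4% and 89.0% in WT Tu. The activator and inhibitor sum and the inducible beta sum lie above 100% in CKO Tu. Within these sums the CKO Tu means of Psme1, Psme2, Psme2b, Psmf1, Psmb9 and Psmb11 are below those of WT DMSO.

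The lid, which holds the deubiquitinase Psmd14 and its partner Psmd7, contained the largest falls among the structural subunits. Of its 8 genes 6 fell in CKO Tu against WT Tu (75%, against 19.6% of all genes) and 3 fell in WT Tu against WT DMSO (37.5%, against 15.9%), with none higher in either. Psmd3, a scaffold subunit of the lid, had 30.1, 28.7 and 29.4 FPKM in CKO Tu, 41.7, 41.0 and 41.9 FPKM in WT Tu, and 58.3, 56.9 and 58.3 FPKM in WT DMSO. The groups were far apart for their spread, at -0.48 ± 0.04 in CKO Tu against WT Tu (limma adjusted p = 7.16e-05) and -0.47 ± 0.04 in WT Tu against WT DMSO (adjusted p = 7.33e-05). The CKO Tu mean was 0.508 of the WT DMSO mean. Psmd12, another scaffold subunit, had 42.3, 40.8 and 39.4 FPKM in CKO Tu, 60.4, 58.1 and 55.6 FPKM in WT Tu, and 68.5, 65.1 and 69.6 FPKM in WT DMSO. Its larger step was in CKO Tu against WT Tu, at -0.50 ± 0.05 (adjusted p = 0.000202). Between WT Tu and WT DMSO it was -0.22 ± 0.05 (adjusted p = 0.0133), a call lost without WT DMSO replicate 3 (0.0546).

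Psmd7 had 75.8, 69.3 and 73.5 FPKM in CKO Tu, 102.7, 92.3 and 92.9 FPKM in WT Tu, and 112.1, 117.4 and 123.4 FPKM in WT DMSO, with a change of -0.39 ± 0.06 in CKO Tu against WT Tu (limma adjusted p = 0.00157) and -0.29 ± 0.06 in WT Tu against WT DMSO (adjusted p = 0.00781). Psmd14 differed from it between the WT groups, with 46.6, 46.2 and 46.2 FPKM in CKO Tu, 70.1, 54.2 and 56.1 FPKM in WT Tu, and 53.0, 51.5 and 52.2 FPKM in WT DMSO. CKO Tu was below WT Tu (-0.36 ± 0.09; adjusted p = 0.0112), and WT Tu did not pass against WT DMSO (0.19 ± 0.09; adjusted p = 0.124). WT Tu replicate 1 was the highest library, and without it these changes were -0.246 (adjusted p = 0.00137) and 0.078 (adjusted p = 0.142). Psmd8 had the highest level of the 31 core and regulatory-particle subunits other than Psma8, at 238 ± 7.40 FPKM in CKO Tu, 283 ± 16.8 FPKM in WT Tu and 272 ± 2.23 FPKM in WT DMSO (SD, n = 3 each). It fell in CKO Tu against WT Tu by 0.25 ± 0.06 (adjusted p = 0.00771). Psmd13 also fell there, by 0.32 ± 0.05 (adjusted p = 0.00175), and it shares its position with the pseudogene Gm15542 on the same strand. Psmd6 and Psmd11 did not pass in any comparison. Psmd11 was 44.7 ± 0.451 FPKM in CKO Tu, 40.6 ± 1.74 FPKM in WT Tu and 45.2 ± 2.15 FPKM in WT DMSO (SD, n = 3 each). With the GC trend removed Psmd11 was called lower in WT Tu against WT DMSO (-0.32; adjusted p = 0.00324). It was then called higher in CKO Tu against WT Tu (0.166; adjusted p = 0.0479).

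Although subunits of the particle are assembled in fixed numbers, FPKM values were not equal. FPKM depends on the deposited gene length, which was 899 bases for Psmb5 and 4595 for Psmb1. Their WT DMSO fragments numbered 9710 and 7611, closer together than their FPKM, so the ranges below cannot be read as ranges of transcript number. In WT DMSO the 31 constitutive subunits ranged from 28.4 FPKM for Psmd1 to 272 FPKM for Psmd8, a ratio of 9.57, with a median of 64.7 FPKM. Within the beta ring the range was from 34.4 FPKM for Psmb1 to 224 FPKM for Psmb5, and within the ATPases from 42.3 FPKM for Psmc2 to 126.8 FPKM for Psmc1. Assembly chaperones were lower, from 5.55 FPKM for Psmd9 to 39.3 FPKM for Psmg4.

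Assembly chaperones hold intermediates together and leave the finished particle. Of the 7, 4 fell in CKO Tu against WT Tu (57.1%, against 19.6% of all genes) and none rose. In WT Tu against WT DMSO 1 fell (14.3%, against 15.9%) and 1 rose (14.3%, against 17.7%), shares near those of all genes. Psmd10 (gankyrin), a chaperone of the base, had 11.1, 11.6 and 12.3 FPKM in CKO Tu, 18.1, 17.7 and 17.0 FPKM in WT Tu, and 22.5, 21.3 and 22.5 FPKM in WT DMSO. The groups did not overlap, at -0.55 ± 0.06 in CKO Tu against WT Tu (limma adjusted p = 0.000149) and -0.31 ± 0.06 in WT Tu against WT DMSO (adjusted p = 0.00312). Psmd10 lies on chromosome X, and the 2 genotypes differed in sex-linked transcripts. Of 345 X-linked genes tested, 67 (19.4%) were lower in CKO Tu than in WT Tu, at a median log2 change of -0.02. The other base chaperones fell in CKO Tu against WT Tu as well, Psmd5 by 0.36 ± 0.07 (adjusted p = 0.00464) and Psmd9 by 0.29 ± 0.06 (adjusted p = 0.00564). Psmd9 overlaps Hpd on the other strand, a liver gene that reached 135 FPKM, and the strand setting of the counting is not given, so its counts are uncertain.

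Chaperones of the alpha ring act as pairs, Psmg1 with Psmg2 and Psmg3 with Psmg4. Psmg1 had 19.95, 18.7 and 19.4 FPKM in CKO Tu, 25.2, 18.8 and 21.0 FPKM in WT Tu, and 17.1, 17.0 and 17.5 FPKM in WT DMSO. All tunicamycin libraries were above WT DMSO, and WT Tu passed against it (0.31 ± 0.09; limma adjusted p = 0.0315). Without WT Tu replicate 1, the highest library, the change was 0.197 (adjusted p = 0.031). The call was lost without any WT DMSO library or WT Tu replicate 3 (up to 0.0822) and with upper-quartile, quantile or total-fragment scaling. Psmg2 had 36.1, 33.1 and 34.8 FPKM in CKO Tu, 36.8, 31.7 and 34.3 FPKM in WT Tu, and 32.0, 29.6 and 28.8 FPKM in WT DMSO. It was higher in CKO Tu than in WT DMSO by 0.20 ± 0.07 (adjusted p = 0.0418), a call lost without WT DMSO replicate 2 or 3, WT Tu replicate 3 or any CKO Tu library (up to 0.134) and under the same 3 scalings. Psmg3 had 4.04, 3.43 and 4.13 FPKM in CKO Tu, 6.51, 5.01 and 6.04 FPKM in WT Tu, and 5.55, 6.25 and 5.39 FPKM in WT DMSO. CKO Tu was below all WT libraries, with a log2 change of -0.49 ± 0.10 against WT Tu (adjusted p = 0.00513), and the WT groups overlapped. Psmg4 passed only in CKO Tu against WT DMSO (-0.43 ± 0.14; adjusted p = 0.0279), a call lost without any WT DMSO library or CKO Tu replicate 1 or 3 (up to 0.0812).

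Activators bind the ends of the core in place of the regulatory particle. Psme4, a nuclear activator linked to histone degradation, had 38.5, 37.7 and 38.3 FPKM in CKO Tu, 35.5, 27.6 and 27.0 FPKM in WT Tu, and 23.7, 21.6 and 20.3 FPKM in WT DMSO. CKO Tu was highest and WT DMSO lowest, and no group overlapped another. Its log2 change was 0.78 ± 0.10 in CKO Tu against WT DMSO (limma adjusted p = 0.00027) and 0.43 ± 0.10 in WT Tu against WT DMSO (adjusted p = 0.0113). Between CKO Tu and WT Tu it was 0.35 ± 0.10 (adjusted p = 0.0262), and 0.47 without WT Tu replicate 1. The call in CKO Tu against WT Tu was lost without WT Tu replicate 2 or 3 or any CKO Tu library (up to 0.0825). Psme3, a nuclear activator of another family, had 56.5, 56.6 and 58.7 FPKM in CKO Tu, 60.1, 59.2 and 61.5 FPKM in WT Tu, and 49.5, 53.8 and 53.8 FPKM in WT DMSO. It rose in WT Tu against WT DMSO (0.20 ± 0.05; adjusted p = 0.0149), except with upper-quartile, quantile or total-fragment scaling.

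The interferon-inducible activator subunits Psme1 and Psme2 did not follow Psmb8. Psme1 was 12.2 ± 0.813 FPKM in CKO Tu, 12.2 ± 0.735 FPKM in WT Tu and 13.7 ± 1.09 FPKM in WT DMSO (SD, n = 3 each). Psme2 had 12.02, 11.8 and 11.7 FPKM in CKO Tu, 7.05, 13.1 and 10.9 FPKM in WT Tu, and 13.98, 13.4 and 12.4 FPKM in WT DMSO. WT Tu replicate 1 was the lowest library, and without it the log2 change in CKO Tu against WT Tu was -0.01 in place of 0.22. Neither gene passed in any comparison, nor did Psme2b, a near-copy of Psme2 whose reads may be split with it. Psme1 and Psme2 are neighbours on chromosome 14, at 55578123 to 55581529 and 55587441 to 55591113 (mm10). Psmf1, an inhibitor of the core, had 6.69, 7.19 and 6.42 FPKM in CKO Tu, 8.25, 7.67 and 8.01 FPKM in WT Tu, and 9.57, 8.80 and 8.71 FPKM in WT DMSO. It fell in CKO Tu against WT Tu by 0.21 ± 0.06 (limma adjusted p = 0.0275), a call lost without WT Tu replicate 1 or 3 or CKO Tu replicate 1 or 3 (up to 0.0952).

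**Figure D4:**
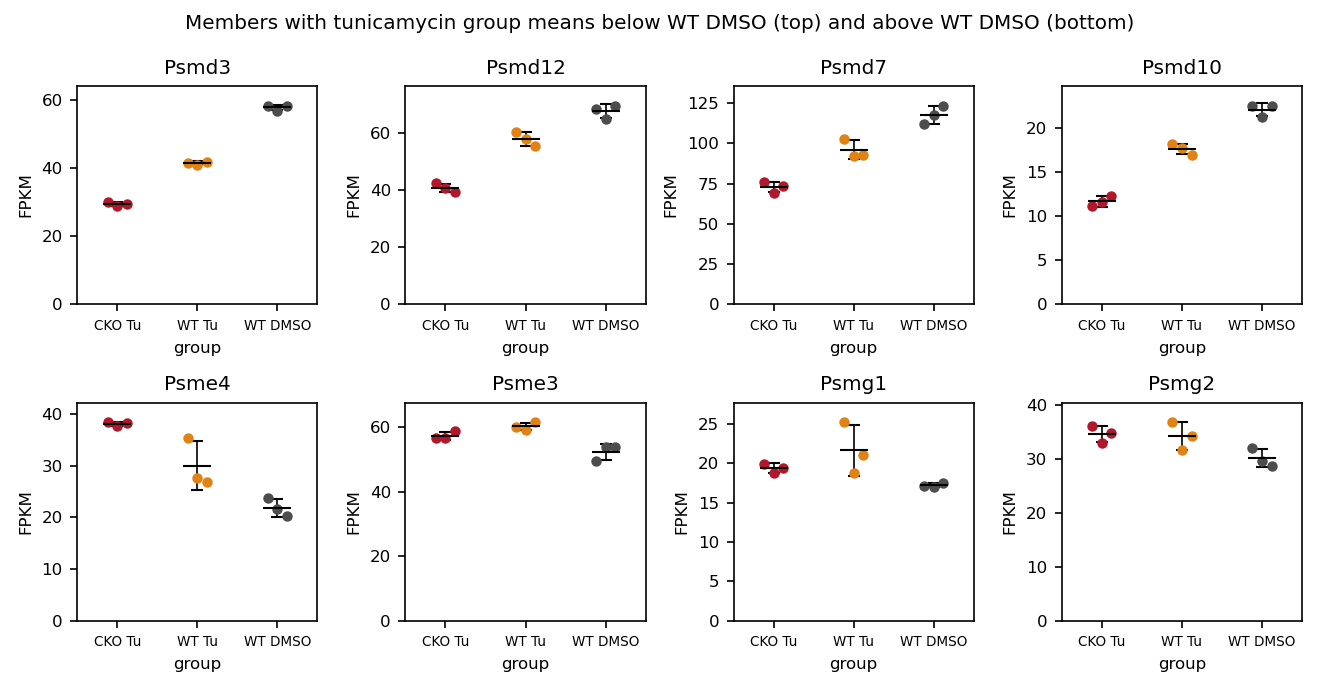
FPKM in 9 libraries of the lid subunits Psmd3, Psmd12 and Psmd7 and the chaperone Psmd10 (top), and of the activators Psme4 and Psme3 and the chaperones Psmg1 and Psmg2 (bottom); points are libraries, bars the mean and SD of 3. Psmd3 is at most 30.1 FPKM in CKO Tu and at least 56.9 FPKM in WT DMSO, and Psme4 runs the other way, at 37.7 to 38.5 FPKM in CKO Tu and 20.3 to 23.7 FPKM in WT DMSO.

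Factors that work with the particle but do not carry its gene names were counted from lists of their own. Of 15 partners of the proteasome, 3 fell (20%, against 19.6% of all genes) and 2 rose (13.3%, against 18.7%) in CKO Tu against WT Tu, shares near those of all genes. In WT Tu against WT DMSO 4 fell (26.7%, against 15.9%) and 2 rose (13.3%, against 17.7%). Usp14, a deubiquitinase on the base, had 17.35, 16.18 and 15.90 FPKM in CKO Tu, 25.34, 21.47 and 20.95 FPKM in WT Tu, and 27.62, 28.71 and 28.99 FPKM in WT DMSO, and passed in both (-0.43 ± 0.07, limma adjusted p = 0.00236, and -0.32 ± 0.07, adjusted p = 0.0104). Adrm1, a ubiquitin receptor, was 40.2 ± 1.20 FPKM in CKO Tu, 43.9 ± 7.88 FPKM in WT Tu and 73.6 ± 5.72 FPKM in WT DMSO (SD, n = 3 each). It fell in WT Tu against WT DMSO by 0.74 ± 0.12 (adjusted p = 0.00178), at -0.828 to -0.589 over the 9 libraries left out. WT Tu replicate 1 was the lowest library, at 34.86 FPKM. With all libraries Adrm1 did not pass in CKO Tu against WT Tu (-0.11, adjusted p = 0.507), but it was called lower there without WT Tu replicate 1 and with library weights. Zfand5, an activator of the proteasome, rose in CKO Tu against WT Tu by 0.33 ± 0.06 (adjusted p = 0.00211). Ubqln1, a shuttle for ubiquitinated proteins, fell there by 0.27 ± 0.06 (adjusted p = 0.00796), and Ubqln2, of the same family, rose in WT Tu against WT DMSO by 0.29 ± 0.07 (adjusted p = 0.0106), except with total-fragment scaling. Pomp, which matures the core, was nearly level between CKO Tu (18.2 ± 0.509 FPKM) and WT Tu (18.4 ± 1.12 FPKM; SD, n = 3 each). Both were below WT DMSO (21.5 ± 0.71 FPKM). The log2 change of Pomp was -0.23 ± 0.06 in CKO Tu against WT DMSO (adjusted p = 0.0101). In WT Tu against WT DMSO it was -0.21 ± 0.06 (adjusted p = 0.0214), a call lost without WT DMSO replicate 2 or 3 or WT Tu replicate 3 (up to 0.0755).

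Among 11 tested transcription factors of proteasome genes and factors that process them, 2 rose (18.2%, against 18.7% of all genes) and 3 fell (27.3%, against 19.6%) in CKO Tu against WT Tu. For WT Tu against WT DMSO, 4 rose (36.4%, against 17.7%) and 1 fell (9.09%, against 15.9%). Nfe2l1, which encodes NRF1, was 37.6 ± 0.885 FPKM in CKO Tu, 33.9 ± 3.59 FPKM in WT Tu and 35.2 ± 0.527 FPKM in WT DMSO (SD, n = 3 each) and did not pass (limma adjusted p = 0.137 in CKO Tu against WT Tu, 0.566 in WT Tu against WT DMSO). Nfe2l2, which encodes NRF2, had 37.7, 36.4 and 35.9 FPKM in CKO Tu, 56.8, 45.9 and 49.3 FPKM in WT Tu, and 63.5, 55.8 and 59.2 FPKM in WT DMSO. It fell in CKO Tu against WT Tu by 0.45 ± 0.08 (adjusted p = 0.00282). Keap1, which directs NRF2 to degradation, rose in that comparison by 0.47 ± 0.11 (adjusted p = 0.00987), at 0.326 to 0.559 over the 9 libraries left out. Nfyb, a subunit of NF-Y, rose there by 0.61 ± 0.07 (adjusted p = 0.000282). Maff, a small Maf partner of NRF1 and NRF2, fell there by 0.57 ± 0.11 (adjusted p = 0.00358). Mafk, a partner of the same kind, was 54.95 ± 1.49 FPKM in CKO Tu, 91.4 ± 5.59 FPKM in WT Tu and 46.25 ± 4.10 FPKM in WT DMSO (SD, n = 3 each). It fell in CKO Tu against WT Tu by 0.72 ± 0.07 (adjusted p = 0.000153) and rose in WT Tu against WT DMSO by 0.97 ± 0.07 (adjusted p = 2.31e-05). The other 4 calls in WT Tu against WT DMSO, Keap1 lower and Maff, Mafg and Nfyc higher, were each lost when some WT DMSO libraries were left out (adjusted p up to 0.13). Without WT Tu replicate 1 the change of Keap1 there was -0.22, against -0.36 with all libraries.

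Of 6 genes for ubiquitin and its activation, 2 fell (33.3%, against 19.6% of all genes) and none rose in CKO Tu against WT Tu, and 2 rose (33.3%, against 17.7%) and none fell in WT Tu against WT DMSO. Ubb, a polyubiquitin gene, had 739.5, 738.3 and 805.2 FPKM in CKO Tu, 374.1, 659.0 and 672.9 FPKM in WT Tu, and 348.9, 323.2 and 395.9 FPKM in WT DMSO. WT Tu replicate 1 lay within the WT DMSO range, and the call in WT Tu against WT DMSO (0.63 ± 0.20; limma adjusted p = 0.0406) was lost without any library other than WT Tu replicate 1 (up to 0.116). The log2 change of Ubb there was 0.484 to 0.907 over the 9 libraries left out. Uba1, the main ubiquitin-activating enzyme, was 77.7 ± 1.06 FPKM in CKO Tu, 93.6 ± 2.5 FPKM in WT Tu and 94.4 ± 1.91 FPKM in WT DMSO (SD, n = 3 each) and fell in CKO Tu against WT Tu (-0.27 ± 0.04; adjusted p = 0.00181).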

How the data were processed

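RNA from primary hepatocytes was sequenced in 9 libraries. HISAT2 2.2.1, featureCounts 1.5.0-p3 and the mm10 build are named in the submitters' processing notes. Which annotation release and strand setting were used is not given in the sources used here. The authors deposited FPKM per gene. Each value was a whole multiple of what 1 fragment is worth in its library (100% of values, within 0.001 fragment), which gave back the fragments per gene. The library size behind the FPKM was 1.0049 to 1.0102 times the fragment total in CKO Tu. It was 0.9476 to 0.9837 times the total in WT Tu and 1.0568 to 1.0701 times in WT DMSO, so the scaling differed between the groups. limma 3.58.1 (R 4.3.3) was fitted with an intensity trend on log2(FPKM + 1), a scale that understates changes of low genes, with group means over all 9 libraries, for genes at 1 FPKM or more in at least 3 libraries. Two-sided p-values were adjusted by Benjamini-Hochberg over 11858 genes, with a threshold of 0.05. On fragments, limma's voom called 2355 genes higher and 2421 lower in CKO Tu against WT Tu, and 2255 and 2041 in WT Tu against WT DMSO. In total 21 alternatives were run. Replicate numbers are taken from the titles. Whether they pair the samples is not given, and the main fit did not pair them. The genes, lists and subcomplexes were chosen with earlier results of these data known. Within each subcomplex those past the threshold and those with the most extreme changes are named, and in other lists up to 4 with the largest change past the threshold; Nfe2l1, Nfe2l2 and Pomp were added after their values were seen. Of the promoters, 42 genes had an entry in the RefSeq table of GRCm38.p6, and those printed were chosen after the values were seen. A few members of the lists outside the subcomplexes were counted but are not reported here.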

Additional observations from a re-analysis of the deposited data

How the results depend on the processing

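The falls in CKO Tu against WT Tu were counted at 21 to 27 genes with single libraries left out (14.9% to 21.2% of all genes), against 27 with all (19.6%). The median log2 change (-0.22) was -0.237 to -0.208 without single libraries. Quantile normalization gave -0.19, total-fragment scaling -0.164 and library weights -0.244. The median in CKO Tu against WT DMSO (-0.323) was -0.236 with no filter, -0.355 with a filter at 5 FPKM, -0.396 with upper-quartile, -0.37 with quantile and -0.397 with total-fragment scaling, and -0.351 to -0.305 without single libraries. Without single libraries, 25 to 32 genes were lower (20.3% to 28.1% of all genes). The median in WT Tu against WT DMSO (-0.145) was -0.198, -0.225 and -0.273 with those 3 scalings and -0.157 to -0.127 without single libraries. The genes lower there numbered 28 with total-fragment scaling, when 26.2% of all genes were lower, against 15.9% with the deposited scaling. Without single libraries they numbered 9 to 17 (11.3% to 14.9% of all genes). The few genes called higher varied most. They numbered 3 in CKO Tu against WT Tu, but 1 with no filter (7.15% of all genes), 5 with total-fragment scaling (21.9%) or the GC trend removed (20.2%), and 1 to 3 without single libraries (13.7% to 20%). They numbered 3 in WT Tu against WT DMSO, but 1 with each of the 3 scalings (12.1% to 16% of all genes) and 2 to 4 without single libraries (14.1% to 17.6%). They numbered 3 in CKO Tu against WT DMSO, but 5 with only the groups compared in the fit (28.4% of all genes) and 2 to 5 without single libraries (21% to 28.6%). Of all genes called, 48.8% were higher in CKO Tu against WT Tu with the deposited scaling, and 45.5% to 58% with the others. Of changes past the threshold in either fit, those that turned round were those of Psmc6 in WT Tu against WT DMSO, at 0.035 with all libraries and -0.168 with the GC trend removed (limma adjusted p = 0.0241), and of Txnl1, a partner of the lid, at 0.161 and -0.018 (adjusted p = 0.802); some small changes that passed in neither also changed sign. The Spearman correlation across genes of change with GC content was -0.344 in that comparison, and the cause was not tested. With the GC trend removed, 19 of the 46 genes were lower there (14.7% of all genes) and 3 higher (17%).

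With the replicate number as a block, 24 genes were lower (18.4% of all genes) and 2 higher (17.4%) in CKO Tu against WT Tu. In WT Tu against WT DMSO 14 were lower (14.5%) and 4 higher (16.7%), and in CKO Tu against WT DMSO 28 (23.4%) and 3 (24.5%). Same-numbered libraries did not deviate together (correlations of -0.097 to 0.021). This shows little shared variation but cannot exclude that they came from the same cells, which the labels do not say. With 3 libraries a group and no COX-2 CKO cells in DMSO, whether the response to tunicamycin differs between genotypes was not tested. Genes below 1 FPKM, such as Psmb9, rest on at most 139 fragments a group.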
